A study of Homo sapiens with 15 samples.

Results

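The microRNAs (miRNAs) miR-191 and miR-425 are made from 2 hairpins that lie next to each other inside the gene DALRD3 on human chromosome 3. The rule took every row of both count tables whose name began with hsa-miR-191- or hsa-miR-425-. It found 4 mature miRNAs, hsa-miR-191-5p, hsa-miR-191-3p, hsa-miR-425-5p and hsa-miR-425-3p, of the 2424 miRNAs listed in either table, and all 4 were listed in both. The values come from 15 small RNA libraries of cells that GEO's labels call a HEK293 derivative, after the human embryonic kidney line HEK293. Their names were FTO1C1, FTO2D4 and FTO3C3, which the study calls both cell lines and clones and are called clones here. Its methods describe them as uninduced in the siRNA experiment. Each clone gave 1 library 48 h after transfection with 10 nM scrambled siRNA and 1 after the same dose of FTO specific siRNA. The kit held different siRNAs against the mRNA of FTO, and the study does not state whether they were pooled. The FTO protein removes the methyl group of N6-methyladenosine (m6A). Cells of each clone for which no siRNA dose is given are called untreated here. For each clone they gave 1 library of small RNA before precipitation (input). A further library came from precipitation with an anti-m6A antibody (m6A), and 1 from precipitation with an IgG control antibody (IgG). There were thus 3 libraries in each of 5 groups, with 1 clone per library.

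A miRNA hairpin is cut by Drosha and Dicer into a short duplex, of which 1 strand usually enters an Argonaute protein as the guide while the other, the passenger strand, is mostly lost. The 5p strand comes from the 5′ side of the hairpin and the 3p strand from the 3′ side. The guide finds its target mRNAs mainly through the seed, bases 2 to 8. miR-191 and miR-425 are transcribed together with their host gene, their 5p strands are the usual guides, and miR-191-5p is abundant in many cell types and often used as a reference miRNA. In this series the questions were which miRNAs change in level when FTO is depleted, and which are precipitated by an antibody against m6A.

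In the RefSeq annotation of build GRCh38.p14, the miR-191 hairpin spans chr3:49020618-49020709 and the miR-425 hairpin chr3:49020148-49020234, both on the minus strand. They are 383 bases apart and lie inside DALRD3 (chr3:49015488-49021505), with the miR-191 hairpin 796 bases from the 5′ end of the gene and the miR-425 hairpin 1271 bases from it. The table holds no exon borders, so the position within an intron was taken from the description of the cluster. By name, 3 of the 4 members were matched in the RefSeq miRNA table. They are shown because the strands of the same hairpin behaved differently below, with the seed in capitals.
hsa-miR-191-5p: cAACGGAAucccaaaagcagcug
hsa-miR-191-3p: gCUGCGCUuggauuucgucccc
hsa-miR-425-3p: aUCGGGAAugucguguccgccc
The entries for miR-191-5p, miR-191-3p and miR-425-3p lie at chr3:49020672-49020694, chr3:49020631-49020652 and chr3:49020159-49020180. No other mature miRNA of the table had any of these 3 seeds. The longest run of bases that miR-191-5p shared with another miRNA was 9, that of miR-191-3p was 9 and that of miR-425-3p was 8. The authors asked that exact matches together cover at least 17 bases of a read. Several shorter runs can add up to this, so the longest run does not settle whether a read could be assigned elsewhere. miR-191-5p is 23 bases long with 9 adenines, miR-191-3p is 22 bases long with 1, and miR-425-3p is 22 bases long with 3. The 3 sequences were searched, on the printed strand, for the letters GAC and AAC, which form the core of the known m6A consensus. miR-191-5p holds AAC at position 2, counted from its 5′ end, and 36.7% of the 346 miRNAs of 23 bases hold GAC or AAC. There it follows C and precedes G. It therefore does not complete the wider consensus RRACH (R is G or A, H is A, C or U) that the study cites. miR-191-3p and miR-425-3p hold neither in these letters, while 38.4% of the 1053 miRNAs of 22 bases hold at least 1 of them.

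Levels are given as reads per 1000000 miRNA reads of the library (RPM). They are read counts without correction for ligation and amplification, so levels of different miRNAs are not numbers of molecules. RPM are shares, so a change in a miRNA and an opposite change in the rest of its library cannot be told apart. The libraries held between 1991317 and 3876806 miRNA reads in the siRNA experiment, between 569501 and 4973238 in the m6A, between 1408702 and 1500357 in the input and between 186446 and 786688 in the IgG samples. The 4 members together took between 0.507% and 0.834% of the reads after either siRNA, between 0.389% and 0.614% of the input, between 0.664% and 0.95% of the m6A and between 0.0542% and 0.06% of the IgG libraries. In the m6A, IgG and input counts, miR-6080 took between 15.5% and 71.6% of a library and therefore enters every RPM value. Its count was 563404 in both the m6A and the IgG library of FTO2D4, where 6 miRNAs in all had equal counts, whereas it differed between these libraries in FTO1C1 and FTO3C3. The part of this equality in the results was not tested directly, but leaving FTO2D4 out changed no call of the members. FTO is an mRNA and has no row among miRNAs, so neither its knockdown nor the identity of the cells was checked here.

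miR-191-5p was the most abundant member in every group but the IgG samples, with the 23rd highest mean of 2418 miRNAs after scrambled siRNA. In the order FTO1C1, FTO2D4 and FTO3C3 it had 7327, 6878 and 7344 RPM after scrambled siRNA and 4811, 5448 and 8035 RPM after FTO siRNA. It had 2967, 5063 and 5027 RPM in the input, 7198, 8023 and 5226 RPM in the m6A and 94.4, 140 and 96.5 RPM in the IgG samples. The IgG libraries, with 70, 110 and 18 reads, thus stood far below all other libraries, and the 4 other groups overlapped with their neighbours in the order of means. The 18 reads of the shallowest library, the IgG sample of FTO3C3, carry an exact 95% binomial interval of 57.2 to 153 RPM, which covers counting error only.

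**Figure D1:**
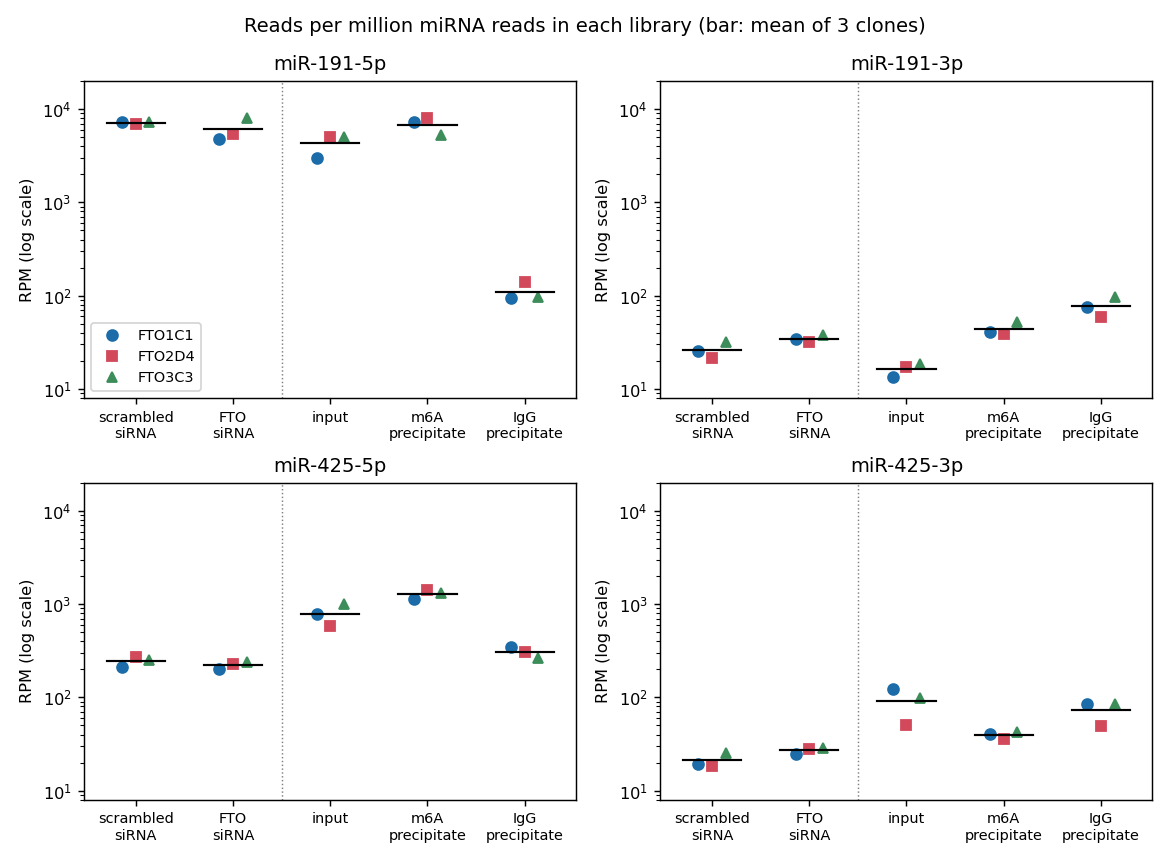
Each panel plots the RPM (log scale) of 1 of the 4 miRNAs in each library, with a symbol per clone and a bar at the mean of the 3 clones, and the dotted line divides the siRNA libraries from those of untreated cells. The IgG libraries of miR-191-5p sit between 94.4 and 140 RPM, below every other library of that miRNA, whereas those of miR-191-3p sit between 59.7 and 96.5 RPM, above every other library of that strand.

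miR-191-3p, the passenger strand, had between 13.5 and 96.5 RPM in all libraries and was highest in the IgG samples, where miR-191-5p was lowest. It had 25.6, 21.5 and 31.6 RPM after scrambled siRNA and 34.8, 31.8 and 37.7 RPM after FTO siRNA. In untreated cells it had 13.5, 17.1 and 18.7 RPM in the input, 40.4, 38.9 and 52.9 RPM in the m6A and 75.5, 59.7 and 96.5 RPM in the IgG samples. Its lowest group was thus the input, with 19 to 28 reads per library, its highest the IgG samples, and no neighbours in the order of means overlapped. The gap between the scrambled and FTO siRNA libraries was small, with 31.6 RPM as the highest of the former and 31.8 as the lowest of the latter.

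miR-425-5p, the guide strand of the other hairpin, was highest in the m6A samples. It had 214, 269 and 253 RPM after scrambled siRNA and 201, 229 and 241 RPM after FTO siRNA. In untreated cells it had 790, 585 and 998 RPM in the input, 1122, 1407 and 1320 RPM in the m6A and 345, 309 and 263 RPM in the IgG samples. The scrambled siRNA libraries overlapped with the FTO siRNA and with the IgG libraries, while the input lay above the IgG samples and the m6A samples above the input. The input of untreated cells and the siRNA libraries come from separate experiments, so the gap between a mean of 791 RPM in the former and 245 RPM after scrambled siRNA was not tested.

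miR-425-3p had 19.5, 18.3 and 25.6 RPM after scrambled siRNA and 25.0, 28.3 and 28.9 RPM after FTO siRNA. In untreated cells it had 124, 50.7 and 98.6 RPM in the input, 40.4, 36.0 and 42.4 RPM in the m6A and 85.0, 49.6 and 85.8 RPM in the IgG samples. The input and IgG libraries overlapped at the top of the order, the m6A libraries lay below both, and the siRNA libraries were lowest. FTO2D4 gave the lowest value of this strand in the input, m6A and IgG samples.

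After FTO knockdown none of the 4 members changed by edgeR's quasi-likelihood test. Over the 2374 miRNAs tested, 4.97% were called higher and 0.505% lower at an adjusted p under 0.05, against 0 of the 4 members in either direction. On the scale of total miRNA reads the number of members at an unadjusted p under 0.05 was also 0 by edgeR. With TMM factors in edgeR, miR-191-5p (-0.56, unadjusted p = 0.0166) and miR-425-5p (-0.42, unadjusted p = 0.0185) lay under it. Without FTO3C3, miR-191-5p (unadjusted p = 0.0151 by edgeR), miR-191-3p (0.036) and miR-425-3p (0.0464) did. With the most abundant miRNA, miR-10a-5p, left out of the totals, miR-191-3p did (unadjusted p = 0.0411 by edgeR). By DESeq2, miR-191-5p (unadjusted p = 0.0100) and miR-425-5p (0.0383) did. DESeq2 called 0 of the 3 members to which it gave an adjusted p. Scaled with TMM factors, the calls over all miRNAs changed from 118 higher and 12 lower to 21 and 34. For miR-191-5p the ratio of FTO to scrambled siRNA was below 1 in FTO1C1 (0.657) and FTO2D4 (0.792) and above it in FTO3C3 (1.09), so that the clones did not move in the same direction. On the log2 scale this was -0.27 ± 0.16 (SE, 95% interval -0.62 to 0.08, adjusted p = 0.299 by edgeR). For miR-425-5p the 3 ratios were 0.939, 0.853 and 0.951, all below 1, with a log2 fold change of -0.13 ± 0.15 (SE, 95% interval -0.47 to 0.21, adjusted p = 0.599 by edgeR).

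The passenger strands gave ratios above 1 in all 3 clones. miR-191-3p had ratios of 1.36, 1.48 and 1.19 and a log2 fold change of 0.42 ± 0.19 (SE, 95% interval -0.0019 to 0.84, adjusted p = 0.192 by edgeR). miR-425-3p had ratios of 1.28, 1.55 and 1.13 and a log2 fold change of 0.38 ± 0.19 (SE, 95% interval -0.047 to 0.81, adjusted p = 0.238 by edgeR). Over all miRNAs in this test the median was 0.29 on the log2 scale, so relative to it the guide strands lay at -0.56 for miR-191-5p and -0.42 for miR-425-5p and the passenger strands at 0.13 and 0.09. No alternative setting brought a member to an adjusted p under 0.05 in this comparison, and the lowest value was that of miR-191-5p with DESeq2 (log2 fold change -0.57, adjusted p = 0.0787 by DESeq2).

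**Figure D2:**
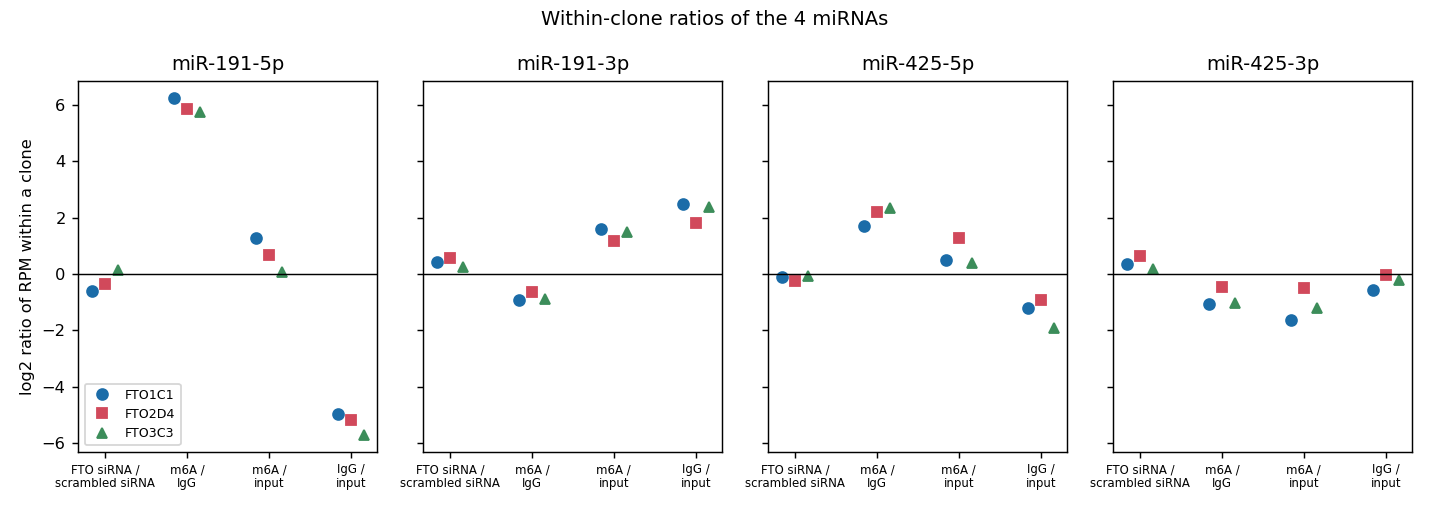
Each panel plots, for 1 miRNA, the log2 ratio of RPM between 2 libraries of the same clone (vertical axis) for the 4 comparisons, with a symbol per clone and a line at 0. For miR-191-5p the 3 ratios of m6A to IgG lie between 5.76 and 6.25 and those of IgG to input between -5.70 and -4.97, while those of miR-191-3p have the opposite sign in both comparisons.

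Against the IgG control, the guide strands were enriched in the m6A samples and the passenger strands were not. Over the 2054 miRNAs tested, edgeR called 38.6% higher and 1.27% lower, and of the members 2 of 4 were called higher and none lower. miR-191-5p had within-clone ratios of m6A to IgG of 76.2, 57.4 and 54.1, with a mean of 62.6 ± 11.9 (SD, n = 3 clones). Its log2 fold change of 5.96 ± 0.32 (SE, adjusted p = 3.72e-06 by edgeR) was the 30th highest of the 2054. The 3 ratios of miR-425-5p were 3.25, 4.56 and 5.02, with a mean of 4.28 ± 0.919 (SD, n = 3 clones) and a log2 fold change of 2.07 ± 0.27 (SE, adjusted p = 0.000439 by edgeR). With 38.6% of all miRNAs called higher, that call alone does not set miR-425-5p apart, and it ranked 434th of 2054.

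The passenger strands had lower RPM in the m6A than in the IgG sample of every clone. miR-191-3p had ratios of 0.535, 0.651 and 0.548 and a log2 fold change of -0.79 ± 0.32 (SE, adjusted p = 0.0809 by edgeR). miR-425-3p had ratios of 0.475, 0.725 and 0.494 and a log2 fold change of -0.84 ± 0.34 (SE, adjusted p = 0.0758 by edgeR). Neither passed the threshold on the scale of total miRNA reads, on which the median of all tested miRNAs was 0.83. With miR-6080 left out of the totals the log2 fold changes became -1.48 and -1.53 (adjusted p = 0.00879 and 0.00725 by edgeR), and TMM scaling and DESeq2 also called both lower. The calls over all miRNAs turned with the scale in the same way, from 792 higher and 26 lower to 453 and 302 with TMM factors. miR-191-5p and miR-425-5p were called higher in every alternative, with log2 fold changes from 5.17 to 6.04 and from 1.28 to 2.26.

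Against the input, the values of the m6A samples depended on the scale for all 4 members. On the scale of total miRNA reads, edgeR called 66.8% of 2174 miRNAs higher and 10.5% lower, and the median of all was 1.65 on the log2 scale. miR-191-3p was called higher, with ratios of m6A to input of 2.99, 2.27 and 2.83 and a log2 fold change of 1.41 ± 0.37 (SE, adjusted p = 0.00126 by edgeR). Only 19, 25 and 28 reads stood behind the input values, and with TMM factors or DESeq2 the value was -0.15 or -0.16 and was not called. miR-425-3p was called lower, with ratios of 0.325, 0.709 and 0.43 and a log2 fold change of -1.11 ± 0.41 (SE, adjusted p = 0.017 by edgeR). That call was lost without FTO1C1 (log2 fold change -0.87, adjusted p = 0.112 by edgeR), without FTO3C3 (-1.04, adjusted p = 0.0581) and with miR-6080 left out of the totals (-0.64, adjusted p = 0.205). It was kept, with values further from 0, with TMM factors (-2.67, adjusted p = 0.000273 by edgeR) and with DESeq2 (-2.69, adjusted p = 5.99e-10).

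The guide strands had ratios above 1 to the input in all 3 clones but were not called. For miR-191-5p they were 2.43, 1.58 and 1.04, with a log2 fold change of 0.67 ± 0.42 (SE, 95% interval -0.19 to 1.53, adjusted p = 0.148 by edgeR). For miR-425-5p they were 1.42, 2.41 and 1.32, with a log2 fold change of 0.72 ± 0.40 (SE, 95% interval -0.089 to 1.54, adjusted p = 0.0966 by edgeR). Relative to the median of all miRNAs they lay at -0.99 and -0.93. TMM factors turned them to -0.87 and -0.82, neither called, and DESeq2 to -0.90 and -0.85, both called (adjusted p = 0.0439 and 0.0464 by DESeq2), whereas leaving miR-6080 out of the totals gave 1.13 and 1.19, both called (adjusted p = 0.0281 and 0.0166 by edgeR). Over all miRNAs, TMM factors changed 1452 higher and 229 lower calls to 575 and 614.

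In the IgG samples, which carry RNA held without the anti-m6A antibody, miR-191-5p was much lower than in the input and miR-191-3p was higher. Of the 1941 miRNAs tested, 36.8% were called higher and 21.8% lower, and of the members 1 was called higher and 2 lower. miR-191-5p had ratios of IgG to input of 0.0318, 0.0276 and 0.0192, a log2 fold change of -5.26 ± 0.46 (SE, adjusted p = 1.81e-28 by edgeR). The passenger strand miR-191-3p had ratios of 5.6, 3.49 and 5.17, a log2 fold change of 2.20 ± 0.50 (SE, adjusted p = 4.25e-05 by edgeR). Both kept their direction and their call in all 8 alternatives, with values from -5.86 to -4.11 for miR-191-5p and from 1.60 to 3.34 for miR-191-3p.

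miR-425-5p was lower in the IgG samples than in the input, with ratios of 0.437, 0.528 and 0.263 and a log2 fold change of -1.33 ± 0.41 (SE, adjusted p = 0.00252 by edgeR). The call was lost without FTO1C1 (-1.41, adjusted p = 0.0559 by edgeR) and with miR-6080 left out of the totals (-0.19, adjusted p = 0.655 by edgeR). miR-425-3p had ratios of 0.684, 0.978 and 0.87 and a log2 fold change of -0.27 ± 0.46 (SE, 95% interval -1.17 to 0.64, adjusted p = 0.635 by edgeR). Without miR-6080 in the totals the value turned to 0.87 and was not called. Over all miRNAs, TMM factors gave 559 higher and 586 lower calls in place of 714 and 423, and totals without miR-6080 gave 1231 and 273.

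**Figure D3:**
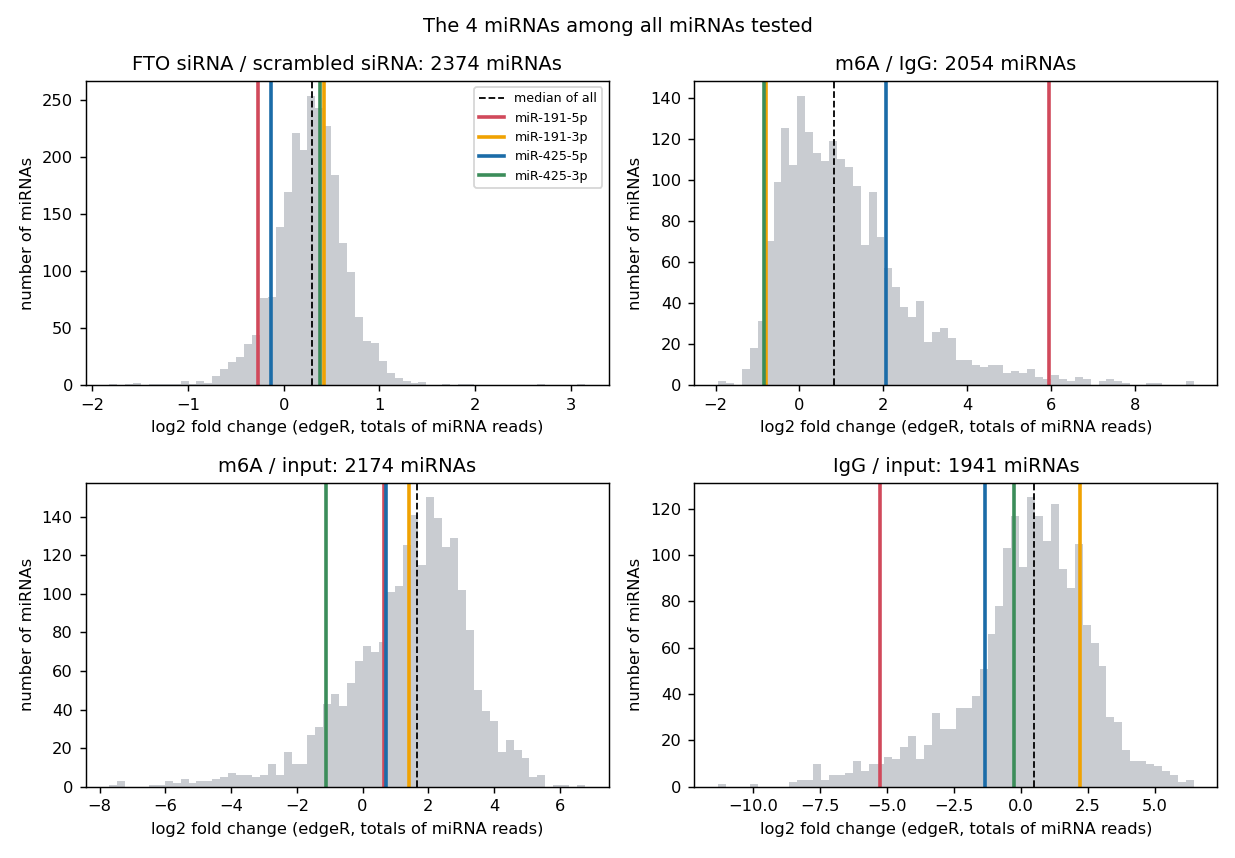
Each panel shows the distribution of log2 fold changes (horizontal axis) over all miRNAs tested in 1 comparison (vertical axis, number of miRNAs), with a dashed line at their median and coloured lines at the 4 members. In m6A against IgG, miR-191-5p lies far to the right of the median of 0.83 at 5.96, and the lines of miR-191-3p and miR-425-3p lie to its left at -0.79 and -0.84.

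Since the scale mattered, the strands of each hairpin were compared within a library, where the total cancels. For miR-191, the 5p strand made up 99.7%, 99.7% and 99.6% of the hairpin's reads after scrambled siRNA, in the order of the clones above, and 99.5%, 99.7% and 99.6% in the input. In the m6A samples the share was 99.4%, 99.5% and 99.0%. In the IgG samples it was 55.6% in FTO1C1 (exact 95% binomial interval 46.4% to 64.4%) and 70.1% in FTO2D4 (62.2% to 77.1%), and FTO3C3 had 18 reads of each strand (32.9% to 67.1%). The passenger strand of miR-191 thus reached a share in the IgG samples that no other library came near. On the log2 scale, with 0.5 added to each count, the mean ratio of 5p to 3p was 7.99 ± 0.223 in the input, 7.25 ± 0.553 in the m6A and 0.51 ± 0.632 in the IgG samples (SD, n = 3 clones). The m6A samples exceeded the IgG samples by 6.74, with differences from 6.46 to 7.13 in the 3 clones.

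For miR-425 the 5p share was 91.6%, 93.6% and 90.8% after scrambled siRNA and 86.4%, 92.0% and 91.0% in the input. It was 96.5%, 97.5% and 96.9% in the m6A and 80.3%, 86.2% and 75.4% in the IgG samples. The m6A samples were thus above and the IgG samples below all 3 inputs, with mean log2 ratios of 5p to 3p of 5.00 ± 0.258, 3.17 ± 0.449 and 2.07 ± 0.522 in m6A, input and IgG (SD, n = 3 clones). The difference of m6A minus input in this ratio was -0.74 for miR-191 and 1.83 for miR-425, with the same sign in all 3 clones each, and the difference between the hairpins was not tested. Over 598 hairpins with enough reads on both strands the median size of this difference was 1.58, and miR-191 ranked 451st and miR-425 262nd by size.

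**Figure D4:**
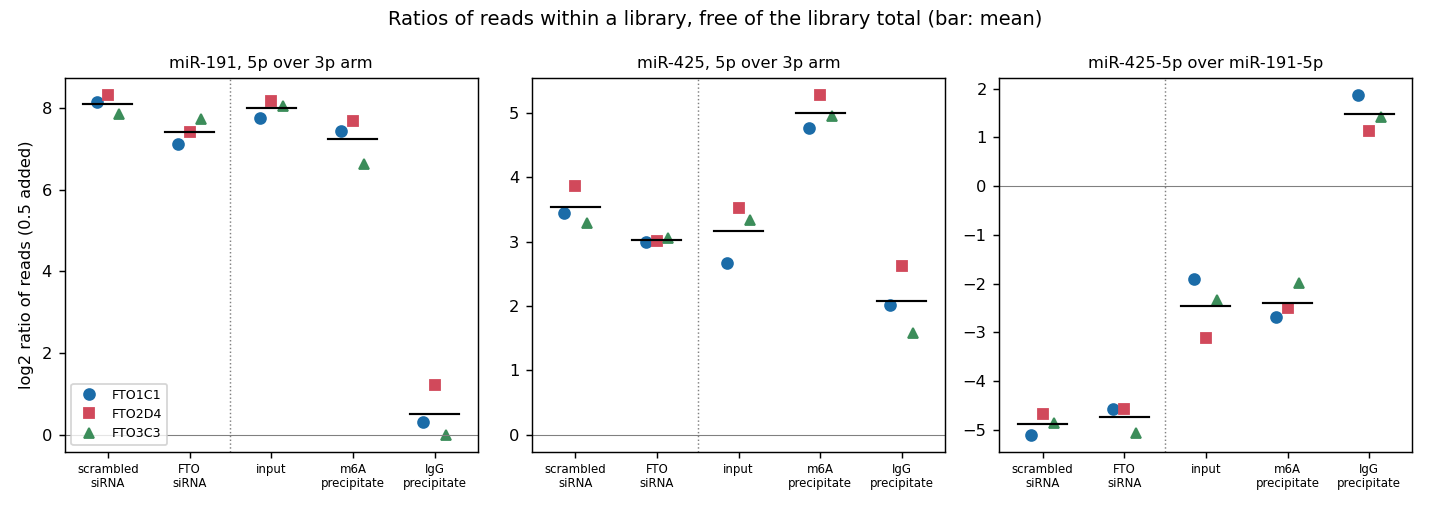
The panels plot the log2 ratio of reads within each library (vertical axis, 0.5 added to each count) for the 5p over the 3p strand of miR-191 and of miR-425 and for miR-425-5p over miR-191-5p, with a symbol per clone and a bar at the mean. The IgG libraries of miR-191 lie between 0 and 1.22, whereas all other libraries of that panel lie between 6.62 and 8.31.

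After FTO knockdown the 5p share was slightly lower for both hairpins, with 99.3%, 99.4% and 99.5% for miR-191 and 88.9%, 89.0% and 89.3% for miR-425. For miR-191 the mean log2 ratio of 5p to 3p was 8.10 ± 0.234 after scrambled and 7.42 ± 0.313 after FTO siRNA, a difference of -0.69 with values from -1.05 to -0.12 in the clones. For miR-425 it was 3.53 ± 0.296 and 3.02 ± 0.0289, a difference of -0.51 with values from -0.85 to -0.24. The groups did not overlap in either case, and the direction was the same in all 3 clones. How many other hairpins did likewise was not counted. Over the 693 hairpins with at least 10 reads on average on each strand, the median size of this change was 0.33, and miR-191 ranked 130th and miR-425 212th by its size.

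Of the 12 differences in ratios that were tested, 10 gave p = 0.10 by a two-sided exact permutation test over libraries, which is the smallest value 3 against 3 libraries allow, and a Benjamini-Hochberg adjusted p of 0.12 (exact permutation). This test therefore cannot pass 0.05 for any of them. Beside these, the difference in the 5p to 3p ratio of miR-191 between IgG and input (-7.48) was the 8th largest in size of 428 hairpins with enough reads, where the median size was 1.89. For the difference between m6A and IgG (6.74) it was the 6th largest of 591, with a median size of 1.19. miR-425 ranked 292nd and 84th by size in the same comparisons. This set of hairpins was chosen after the members' values had been seen.

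The guide strands of the cluster did not keep a constant ratio to each other. miR-425-5p had 0.0291, 0.0391 and 0.0345 reads per read of miR-191-5p after scrambled siRNA and 0.0417, 0.0421 and 0.03 after FTO siRNA. In the input it had 0.266, 0.116 and 0.198, in the m6A samples 0.156, 0.175 and 0.253, and in the IgG samples 3.66, 2.21 and 2.72. The order of the guide strands was thus turned in the IgG samples, where miR-425-5p had more reads than miR-191-5p in all 3 clones. The log2 ratio of miR-425-5p to miR-191-5p was 3.93 higher in the IgG samples than in the input, between 3.75 and 4.25 in the clones, and the difference of m6A minus IgG was -3.87, between -4.54 and -3.40 in the clones (both p = 0.10, exact permutation test). Between m6A and input it differed by 0.06 ± 0.731 (SD of the clone differences, n = 3; p = 1.00, exact permutation test), and between FTO and scrambled siRNA by 0.14 ± 0.361 (p = 0.50, exact permutation test), in both cases with clones on either side of 0.

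Across the 15 libraries, the patterns most like each guide strand were sought among the 439 miRNAs in both tables with a mean of at least 100 RPM. Likeness was the root mean square difference between log2(RPM + 1) profiles, each centred on its own mean. For miR-191-5p the nearest were miR-183-5p (0.54), miR-423-3p (0.57) and miR-31-5p (0.58), against a median of 2.07 over all the others. These 3 miRNAs were also lowest in the IgG samples. They were chosen for likeness over these same libraries, so this is no separate result. For miR-425-5p the nearest were miR-1912 (0.58), miR-3622b-3p (0.74) and miR-3122 (0.78), against a median of 1.96. The partner in the cluster was not near, as the difference between miR-191-5p and miR-425-5p was 2.32, which put miR-425-5p at rank 267 for miR-191-5p and miR-191-5p at rank 296 for miR-425-5p. With a minimum of 15 RPM none of the 3 miRNAs nearest to miR-425-5p was the same, while those nearest to miR-191-5p were. With 10 in place of 1 added to the RPM, 2 of the 3 were the same for each guide strand.

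**Figure D5:**
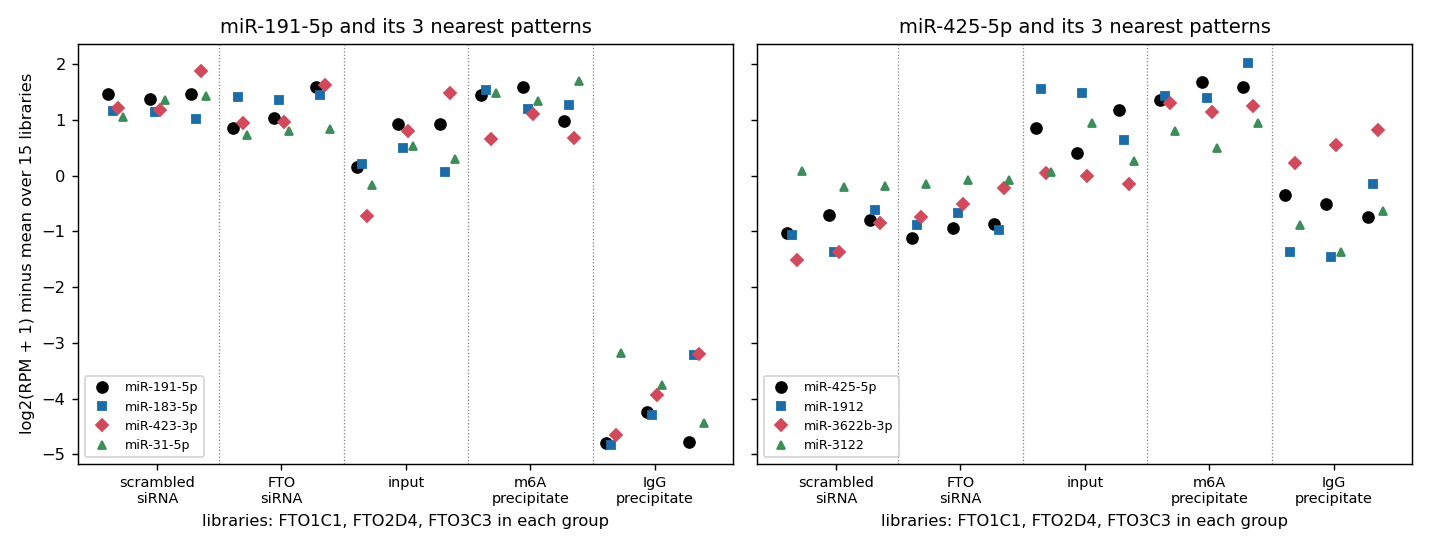
The points show log2(RPM + 1) minus the miRNA's mean over the 15 libraries (vertical axis) for miR-191-5p, miR-425-5p and the 3 miRNAs nearest to each, with the 3 clones of each group side by side. The profile of miR-191-5p and its neighbours falls in the IgG libraries, whereas miR-425-5p is highest in the m6A libraries.

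For context, 30 strands of other miRNAs that are known to lie within protein-coding genes were described in the same comparisons. The list was not matched by level to all miRNAs, whose median was 16.4 RPM in the input and 26.0 RPM in the IgG samples. Whether the differences below belong to the position within a gene was not tested. After FTO knockdown 1 of the 30 was called higher and 2 lower, against 4.97% and 0.505% of all miRNAs. Their median was -0.15 on the log2 scale, against 0.29 over all miRNAs. miR-26b-5p was highest at 0.68 ± 0.15 (SE, adjusted p = 0.0347 by edgeR) and miR-28-3p lowest at -0.62 ± 0.13 (SE, adjusted p = 0.0323 by edgeR). In m6A against IgG, 21 of 29 were called higher and none lower, against 38.6% and 1.27% of all miRNAs. Their median was 2.37 on the log2 scale, against 0.83 over all miRNAs and between the values of miR-425-5p and miR-191-5p, and with miR-103a-3p highest at 8.47 and miR-342-3p lowest at -0.01. In IgG against input none of the 30 was called higher and 24 were called lower, against 36.8% and 21.8% of all miRNAs. Their median was -4.76 against 0.49 over all miRNAs, with values from -8.16 for miR-106b-5p to 1.07 for miR-330-3p (adjusted p = 0.0697 by edgeR). In m6A against input, 9 were called higher and 17 lower, against 66.8% and 10.5% of all miRNAs. Their median was -1.29 against 1.65 over all miRNAs, with values from -6.34 for miR-148b-3p to 3.19 for miR-423-5p. miR-191-5p at -5.26 lay close to the median of these strands in IgG against input, and miR-425-5p at -1.33 lay above it.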

How the data were processed

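Small RNA libraries were sequenced and their reads trimmed with cutadapt by the authors, who kept reads of 16 to 28 bp and assigned them by maximal exact matches to mature miRNAs of miRBase release 20. The authors deposited raw counts of reads per miRNA, neither normalized nor pooled. RPM were computed from these counts and the total of miRNA reads. Each comparison was fitted over all miRNAs with edgeR 4.0.16 (glmQLFit and glmQLFTest in R 4.3.3, library sizes set to the total miRNA reads, low counts removed by filterByExpr at a minimum of 10, the clone as a block), with the standard error taken as the log2 fold change over the root of the F statistic, and p-values were adjusted after Benjamini and Hochberg, with 0.05 as the threshold. All 4 members passed the filter in each comparison. The labels name the clone of each library, and libraries of 1 clone were paired. Deviations from group means correlated between paired scrambled and FTO siRNA libraries at 0.118 to 0.190 and between the other paired groups at -0.0777 to 0.0602. No source says that libraries of a group are more than 1 culture per clone, so each clone counts once per group. The p-values of the fits rest on the variation left after the clone block. Its size is estimated partly from all miRNAs, so a very small p-value does not measure the spread of that miRNA alone. Libraries of 1 group differed by a chi-square per degree of freedom of at least 7.79, so none was counted as a copy. Ratios between members used counts with 0.5 added and a two-sided exact permutation test over libraries (scipy 1.17.1), adjusted over 12 tests. That permutation test did not use the pairing by clone. The alternatives were TMM factors, totals without the most abundant miRNA (miR-10a-5p or miR-6080), DESeq2 1.42.0, no filter, no block, each clone left out, and other added counts and minimum levels. Named miRNAs are the 4 members, those sharing a seed with one, the most abundant miRNAs, the 3 nearest patterns for each guide strand and the highest and lowest of the list of strands in host genes. The members and lists were chosen with earlier results of these data known. Sequences and coordinates are those of RefSeq for GRCh38.p14, and the counts themselves were not aligned to a genome.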

Additional observations from a re-analysis of the deposited data

Results flagged for a closer look

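The ratio of FTO to scrambled siRNA for miR-191-5p drew attention because clones lay on opposite sides of 1 by more than counting error. It was 0.657 in FTO1C1 and 0.792 in FTO2D4, but 1.09 in FTO3C3. Each clone gave 1 library per group, so the difference between clones was not tested.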

How the results depend on the processing

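The log2 fold changes of the 4 members in 4 comparisons were recomputed in 8 alternatives each. Of these 128 values, those with a clone left out kept their direction and side of the threshold in 45 cases and lost the call in 3. Among the values with another setting changed, 63 kept both and 7 turned direction. Of those that kept their direction, 8 gained a call and 2 lost it. The 7 that turned include values that also gained or lost a call. The DESeq2 value of miR-425-3p after knockdown had no adjusted p and was counted as not called. For m6A against IgG, the values of miR-191-3p and miR-425-3p passed the threshold as lower with TMM factors (-1.54 and -1.59), without miR-6080 in the totals (-1.48 and -1.53) and with DESeq2 (-1.58 and -1.63). For m6A against input, miR-191-5p and miR-425-5p turned to -0.87 and -0.82 with TMM factors and were not called. With DESeq2 they turned to -0.90 and -0.85 and were called lower. Without miR-6080 they passed as higher at 1.13 and 1.19. In the same comparison miR-191-3p turned to -0.15 with TMM factors and -0.16 with DESeq2 and lost its call in both. miR-425-3p lost its call without miR-6080 (-0.64) but kept it at -2.67 with TMM factors and at -2.69 with DESeq2. With each clone left out its values ran from -1.41 to -0.87, and the call was lost without FTO1C1 and without FTO3C3. For IgG against input, without miR-6080, miR-425-5p lost its call (-0.19) and miR-425-3p turned to 0.87, and miR-425-5p lost its call without FTO1C1, among values from -1.54 to -1.06. TMM factors moved the median of all miRNAs in m6A against input from 1.65 to 0.10, and the cause of the other shifts was not tested.

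Leaving the replicate block (the clone) out changed no member's call, with 5.93 for miR-191-5p in m6A against IgG. Over all miRNAs it changed the knockdown calls from 118 higher and 12 lower to 37 and 4. DESeq2 gave 32 and 57, totals without miR-10a-5p 169 and 21, and leaving out FTO1C1 gave 0 and 0 by edgeR, with 327 at an unadjusted p under 0.05. Without FTO2D4 there were 87 and 39, and without FTO3C3 191 and 10. For m6A against IgG, the calls were 446 and 257 without miR-6080, 363 and 254 with DESeq2, 456 and 14 without FTO2D4, and 588 and 3 without FTO3C3. For m6A against input they were 1601 and 147 without miR-6080 and 486 and 588 with DESeq2, and for IgG against input 442 and 540 with DESeq2.

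Ratios of members kept their sign with 1 added to each count. The ratio of miR-425-5p to miR-191-5p ran from -0.048 to 0.31 between FTO and scrambled siRNA and from -0.21 to 0.47 between m6A and input as clones were left out. Within clones, an exact sign-flip test of 3 pairs cannot go below p = 0.25. In the IgG library of FTO3C3 the members had 16 to 49 reads, which limits all ratios to it.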
